A study of Mus musculus with 44 samples.

Results

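The 9 genes described here encode subunits of Shaker potassium channels and HCN channels: the pore-forming Shaker subunits Kcna1, Kcna2, Kcna4 and Kcna6, the cytoplasmic beta subunits Kcnab1 and Kcnab2, and the pore-forming HCN subunits Hcn2, Hcn3 and Hcn4. They were found among the 55335 genes of the deposited count table by matching their Ensembl identifiers to symbols in the GENCODE annotation of GRCm38, and all 9 were matched. The counts came from TRAP-seq, in which mRNA bound to tagged ribosomes is captured and sequenced, of hippocampi from Emx1-NuTRAP mice. These mice carry an Emx1-IRES-Cre knock-in and the NuTRAP reporter, so that tagged ribosomes and a tagged nuclear envelope occur in cells whose lineage has expressed Emx1. Those cells are mostly excitatory neurons, and the lineage also holds neural progenitors and can give rise to astrocytes. Early-life exercise (ELE) mice lived with a running wheel between postnatal days 21 and 41, while sedentary littermates had a standard cage. All were males housed in pairs, and hippocampi were taken on day 42. In the simultaneous isolation of nuclei and ribosomes (SIT), both hippocampi of a mouse were pooled, and 4 ELE and 4 sedentary libraries were deposited. In the separate isolation only the left or the right hippocampus of a mouse was used for TRAP, with 3 ELE and 3 sedentary libraries for each side.

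Shaker channels are assembled from several alpha subunits around a potassium-selective pore, and beta subunits dock on their cytoplasmic face. They open on depolarization, hold back the firing of the axon and its terminals, and Kcna4 as well as the beta subunit Kcnab1 can give them rapid inactivation. HCN channels are built on the same plan but open on hyperpolarization, pass sodium as well as potassium, and bind cyclic nucleotides. In hippocampal pyramidal neurons they carry the h-current, which sets the resting potential and the summation of dendritic inputs.

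The stretch of coding sequence that best shows the kinship of both families is the one for the selectivity filter, where the residues glycine, tyrosine and glycine line the narrowest part of the pore. The 30 bases around it are given below for 6 pore-forming members, read 5′ to 3′ from GENCODE transcripts of GRCm38, each within 1 exon, with the codons for glycine, tyrosine and glycine in capitals.
Kcna1 (chr6:126642222-126642251, minus strand): tccatgaccactgtgGGATACGGTgacatg
Kcna2 (chr3:107105215-107105244, plus strand): tccatgacaactgtaGGCTATGGAgacatg
Kcna4 (chr2:107296486-107296515, plus strand): accatgacaactgtgGGCTATGGGgacatg
Kcna6 (chr6:126738641-126738670, minus strand): acaatgaccacggtaGGTTATGGGgacatg
Hcn3 (chr3:89151000-89151029, minus strand): cacatgctatgcattGGCTATGGGcagcag
Hcn4 (chr9:58855576-58855605, plus strand): cacatgctgtgcattGGGTATGGAcggcag
Within these 30 bases the Kcna genes differed from each other at 3 to 7 positions over 6 pairs, and Hcn3 differed from Hcn4 at 4 positions. Between the families 13 to 18 positions differed. The genes themselves lie on 6 chromosomes, and Kcna1 (chr6:126640397-126646384) and Kcna6 (chr6:126708329-126740674) are on the same strand of chromosome 6. Exons of Kcnab2 (chr4:152390742-152477871) share 125 bases with Gm16334 on the same strand, and exons of Kcna6, Kcnab1 (chr3:65109384-65378223) and Hcn3 (chr3:89146074-89160196) overlap genes on the opposite strand. Reads were counted by strand, so that only the overlap in Kcnab2 could draw reads from a member.

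The 20 libraries held 45895097 to 65767802 counts. The study compared 3 ELE with 2 sedentary SIT libraries. These 5 were identified by comparing the mean normalized counts listed for that comparison with each of 24 possible subsets, of which 1 matched all 633 values. The SIT libraries left out were those of mouse NT6.304 (ELE), mouse NT7.2.3 and mouse NT7.2.4 (both sedentary, the NT7.2 mice). The NT7.2 libraries stood apart before any comparison of the channel genes: 8.64% and 9.64% of their counts were mitochondrial, against 0.0704% to 0.523% in the other 18 libraries. Their 8 inhibitory neuron markers summed to 831 and 866 CPM (counts scaled to a common library size), against 46.4 to 83.6 in the 17 libraries compared. The 7 excitatory neuron markers summed to 12120 to 14565 CPM in those 17 libraries and to 10161 and 10042 CPM in the NT7.2 libraries. The 6 microglia markers summed to 2.36 to 7.05 CPM in the 17 and to 165 and 172 CPM in the NT7.2 libraries. No excitatory, inhibitory or microglia marker was at 0 in a whole group, and in bulk samples fewer cells of a type and less RNA per cell cannot be told apart. Values for the 5 SIT libraries are given first below, and those with all 8 beside them.

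The members spanned a wide range of levels. Per kilobase of exon, the scale on which genes can be compared, Kcnab2 was highest in the 12 separately isolated libraries, with 148 ± 12.2 CPM per kb (SD), followed by Hcn2 with 109 ± 8.87. Kcna1 (17.8 ± 1.82), Kcnab1 (16.8 ± 1.98) and Kcna2 (16.4 ± 1.275) came next and were not separated by their spread: Kcna1 exceeded Kcnab1 in 8 of 12 libraries, and Kcnab1 exceeded Kcna2 in 6 of 12. Kcna4 (8.49 ± 0.673), Kcna6 (5.93 ± 0.448), Hcn3 (3.12 ± 0.509) and Hcn4 (0.535 ± 0.3) followed in an order that held in every one of the 12 libraries. Among all the neighbours in this order, those of the middle 3 alone overlapped in range.

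**Figure D1:**
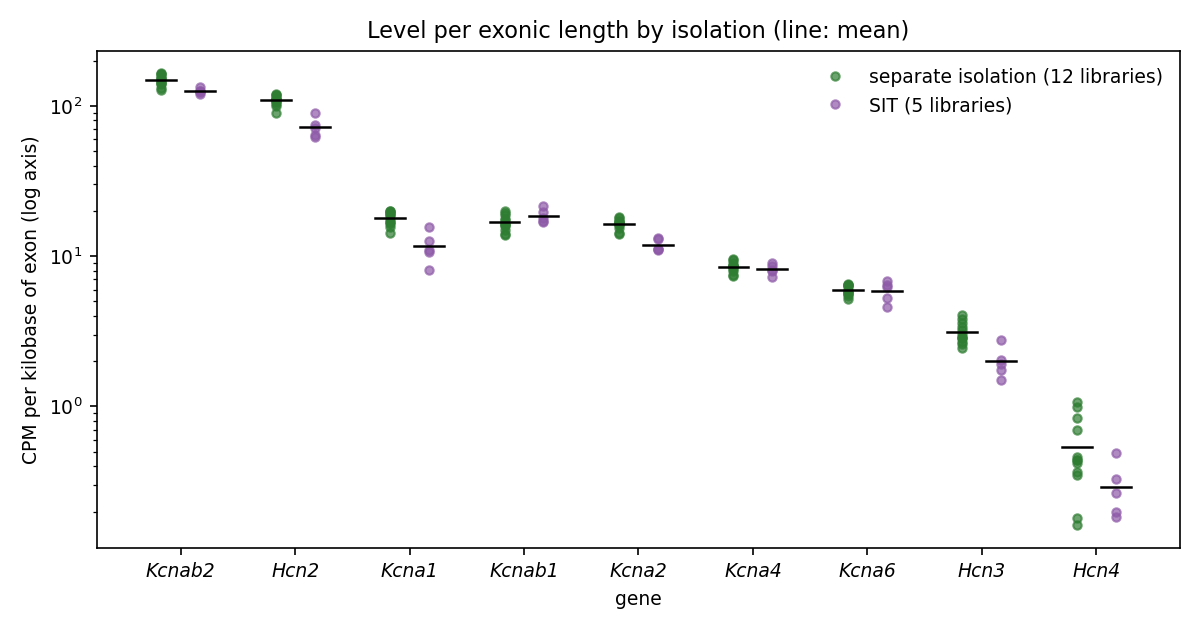
Level of each gene in CPM per kilobase of exon on a log axis, in the 12 separately isolated libraries (green) and the 5 SIT libraries compared (purple), with a line at the mean. Kcnab2 and Hcn2 lie far above the other genes, and Hcn4 has the lowest level and the widest relative spread.

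Seen as shares within each family on the same per-length scale, a single gene made up most of the beta subunit mRNA. Kcnab2, whose product helps bring Shaker channels to the axon, made up 88.0% of the sum of Kcnab1, Kcnab2 and Kcnab3 (range 86.6% to 89.7% over 12 libraries). The alpha subunits were more evenly mixed: Kcna1 made up 35.3% of the summed Kcna genes, Kcna2 32.5%, Kcna4 16.9% and Kcna6 11.8%. In the NT7.2 mice Kcna2 made up 36.9% to 43.5% of the summed Kcna genes, outside the range of the separate libraries (29.4% to 35.4%).

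Whether exercise changed these levels was asked separately in SIT, left and right hippocampi. A gene was called changed, after the rule of the study, at an unadjusted p under 0.05 with an absolute log2 fold change above 0.39, in edgeR's quasi-likelihood test. In SIT 1 of the 9 genes passed, Kcna1, which was higher in ELE mice, where 3.65% of all genes tested passed, 1.54% as higher and 2.11% as lower. In the left hippocampus 1 of 9 passed, Hcn4, also higher, where 2.07% of all genes passed, 1.1% as higher and 0.963% as lower. In the right hippocampus 0 of 9 passed, where 1.97% of all genes passed, 0.746% as higher and 1.23% as lower. A single call among 9 genes is too few to set the members apart from this background. The median log2 fold change of the members was 0.15 in SIT, -0.02 in the left and 0.07 in the right hippocampus, beside 0.00 for all genes in each. No member passed after Benjamini-Hochberg adjustment of edgeR's p-values over all genes in SIT, left or right: the lowest adjusted p of a member was 0.905 in SIT, 0.96 in the left and 0.9998 in the right hippocampus. No gene of the whole table passed at an adjusted p under 0.05 in these comparisons either, while 1000, 699 and 488 genes had an unadjusted p under 0.05.

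**Figure D2:**
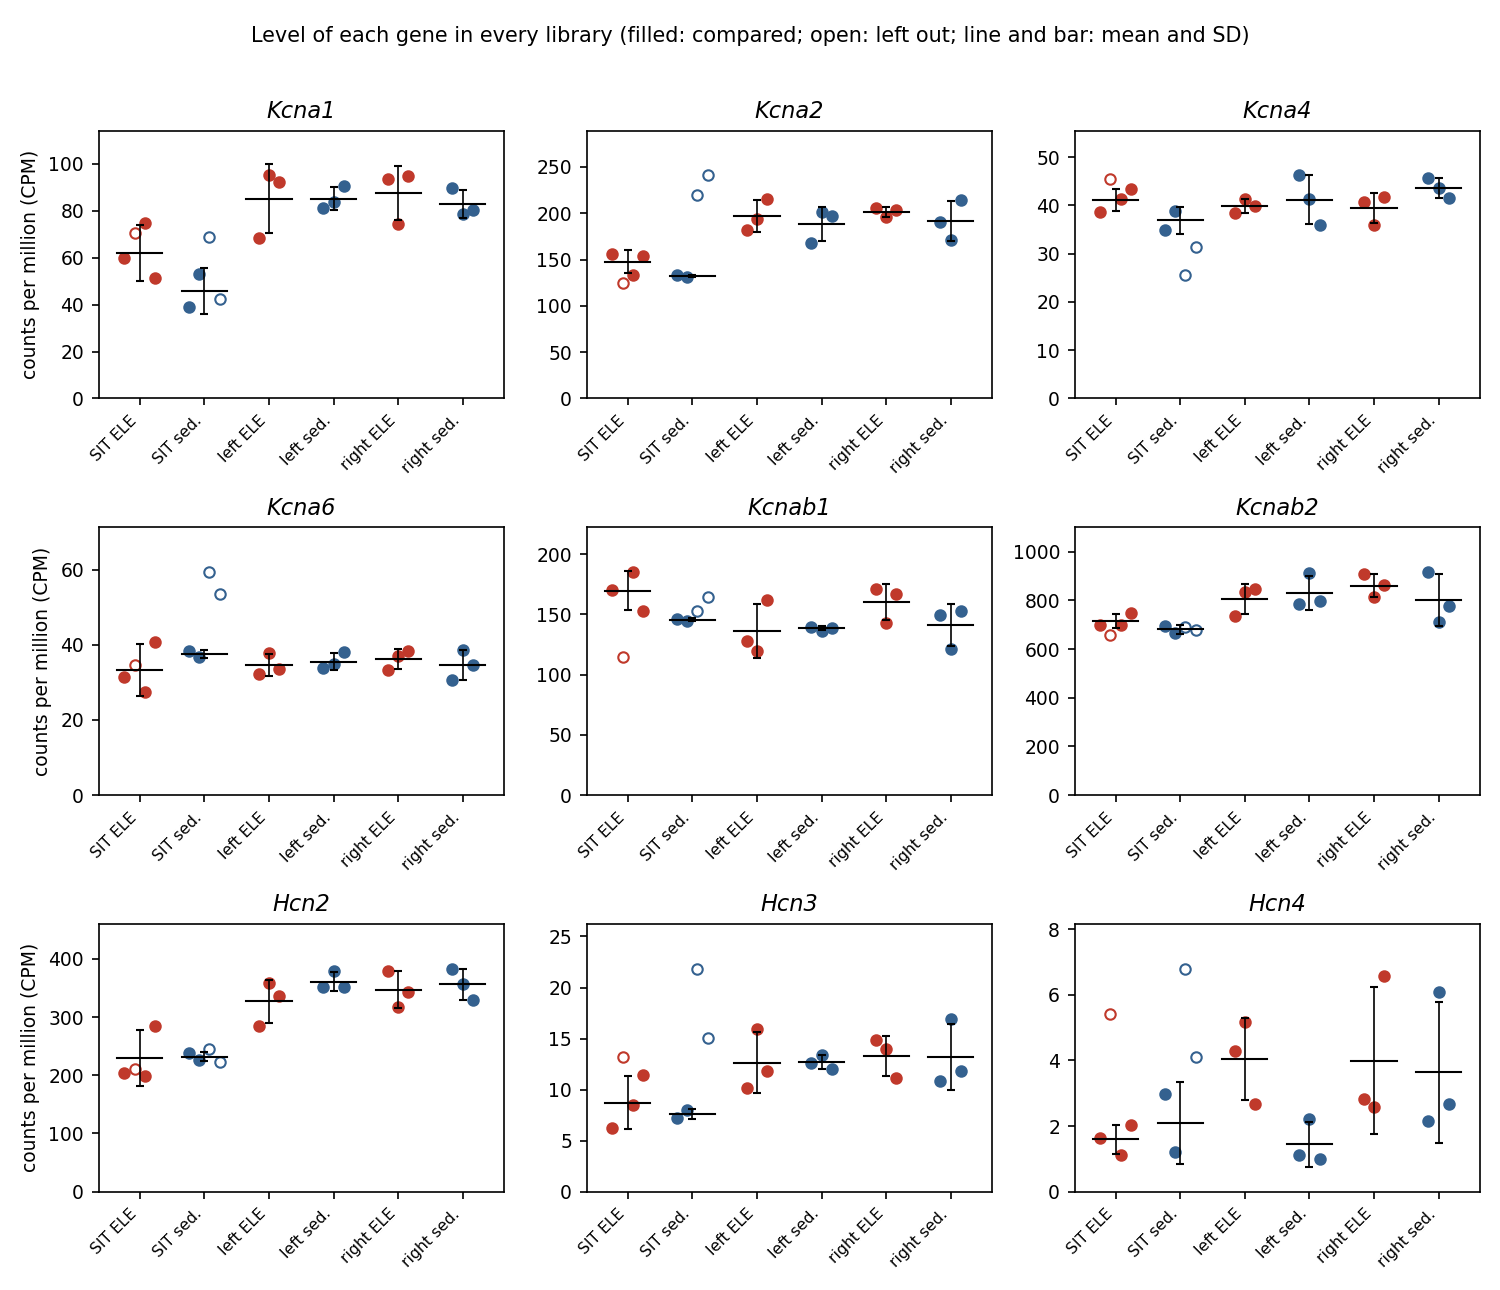
CPM of each gene in all 20 libraries by group, with red points for ELE and blue for sedentary mice, open points for the 3 SIT libraries left out of the comparison, and a line and bar for the mean and SD of the filled points. The groups of most genes overlap, and Hcn4 in the left hippocampus is the member whose ELE points all lie above the sedentary ones in a separately isolated set.

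Kcna1, the axonal Shaker subunit whose loss causes seizures in mice, read 60.0, 74.9 and 51.3 CPM in the SIT libraries of ELE mice NT6.303, TG7.4.1 and TG7.4.2, and 38.8 and 52.9 CPM in sedentary mice NT6.305 and NT6.306. The means were 62.1 ± 11.9 (SD, n = 3) and 45.9 ± 9.94 CPM (n = 2), and the groups overlapped, since the lowest ELE value lay under the higher sedentary one. The log2 fold change was 0.43 (SE 0.18, 95% interval 0.03 to 0.83), with an edgeR p of 0.036 before and 0.905 after Benjamini-Hochberg adjustment. A two-sided exact permutation test on log2(CPM + 0.5) gave p = 0.4, where the smallest p for 3 against 2 is 0.1. The call depended on single libraries: it was lost without NT6.303 (log2 fold change 0.46), without TG7.4.1 (0.28) or without NT6.305 (0.23), while without NT6.306 the value was 0.68 and the call held. It was also lost with all 8 SIT libraries, at 0.34 (95% interval -0.09 to 0.76), where the added ELE mouse read 70.7 CPM and the added sedentary mice 68.7 and 42.5 CPM. With NT6.304 alone added the call held, at 0.48. Within the mice numbered NT6 alone (2 ELE, 2 sedentary) the log2 fold change was 0.50 (95% interval 0.01 to 0.98).

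In the separately isolated hippocampi Kcna1 did not pass. The left ELE libraries read 68.5, 95.1 and 92.0 CPM and the left sedentary ones 81.1, 83.8 and 90.4 CPM, with a log2 fold change of 0.00 (95% interval -0.27 to 0.28). The right ELE libraries read 93.7, 74.2 and 94.8 CPM and the right sedentary ones 89.5, 78.7 and 80.4 CPM, with a log2 fold change of 0.08 (-0.16 to 0.33). In both hemispheres the ELE libraries spread more widely than the sedentary ones and enclosed them. The difference between the SIT change and the change in separate isolation was tested over 17 libraries as an interaction and was 0.40 (SE 0.18, 95% interval 0.01 to 0.78), with a Benjamini-Hochberg adjusted p of 0.89 in edgeR. It was the 1 member of 9 to pass this test before adjustment, where 5.59% of all genes passed. The call was lost without 7 of the 17 libraries in turn (0.19 to 0.40), the lowest value being that without NT6.305. Without NT6.306 the value was 0.64. Over all 20 libraries the call was lost as well (0.30). There 3 other members passed, Kcna2 (-0.42), Kcna4 (0.46) and Kcna6 (-0.50), none of them after adjustment. That fit called 1875 genes of the whole table, against 1138 over the 17 libraries.

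Some marker genes moved in the same SIT comparison. Of the 5 dentate granule cell markers 2 rose (Prox1 and Dsp), and the 5 summed to 482 to 611 CPM in ELE mice and 414 and 546 CPM in sedentary mice. Of the 6 choroid plexus markers 3 fell (Folr1, Clic6 and Kl), with sums of 131 to 570 CPM in ELE and 601 and 689 CPM in sedentary mice. Their part in the Kcna1 value was not tested.

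Kcna2, which joins Kcna1 in axonal channels, read 156, 133.4 and 154 CPM in the 3 ELE SIT libraries and 133.2 and 131 CPM in the 2 sedentary ones. The ELE values all lay above the sedentary ones, the lowest of them narrowly, and the log2 fold change was 0.16 (95% interval -0.07 to 0.39). Its log2 fold change was 0.07 in the left (-0.15 to 0.29) and 0.07 in the right hippocampus (-0.15 to 0.29). With all 8 SIT libraries the direction turned, to -0.36 (-0.82 to 0.10), where the NT7.2 mice read 219.7 and 241 CPM.

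Kcna4, the subunit with its own inactivation gate, lay between 35.0 and 46.2 CPM in the 17 libraries compared. Its log2 fold changes were 0.15 in SIT (-0.13 to 0.43), -0.05 in the left (-0.29 to 0.20) and -0.14 in the right hippocampus (-0.36 to 0.08). Kcna6 lay between 27.4 and 40.9 CPM in the same libraries, with log2 fold changes of -0.18 in SIT (-0.56 to 0.21), -0.03 in the left (-0.25 to 0.18) and 0.06 in the right hippocampus (-0.19 to 0.32). Neither gene passed in any of the 3 comparisons. The NT7.2 mice read 59.4 and 53.6 CPM for Kcna6, above every other library, and 25.5 and 31.4 CPM for Kcna4, below every other library. With them in the fit Kcna6 passed as lower in ELE mice, at -0.49 (-0.91 to -0.07), in a fit in which 7.7% of all genes passed, and Kcna4 was at 0.36 (0.045 to 0.68), under the fold threshold.

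Neither beta subunit passed in an exercise comparison. Kcnab1, which can close the pore of Kcna1 channels with its own amino terminus, read 170.2, 185 and 153 CPM in the ELE SIT libraries and 146 and 145 CPM in the sedentary ones, so that the groups did not overlap. In SIT 3 of the 9 members had groups that did not overlap, Kcna2, Kcnab1 and Kcnab2, against 22.1% of all genes. The log2 fold change of Kcnab1 was 0.22 (SE 0.10, 95% interval -0.01 to 0.45) in SIT, -0.02 in the left (-0.28 to 0.24) and 0.19 in the right hippocampus (-0.07 to 0.44). The ELE mouse left out of SIT, NT6.304, read 114 CPM, the lowest value of all 20 libraries. Within the mice numbered NT6 the log2 fold change was -0.04, and with all 8 SIT libraries it was 0.030 (-0.30 to 0.36). Kcnab2 read 699, 701 and 749 CPM in the ELE SIT libraries and 694 and 668 CPM in the sedentary ones, a log2 fold change of 0.07 (-0.11 to 0.25), and 0.033 (-0.18 to 0.24) with all 8. It was -0.04 in the left (-0.24 to 0.15) and 0.10 in the right hippocampus (-0.13 to 0.34). The right hippocampi of sedentary mice spread from 712 to 917 CPM and enclosed the right ELE values.

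**Figure D3:**
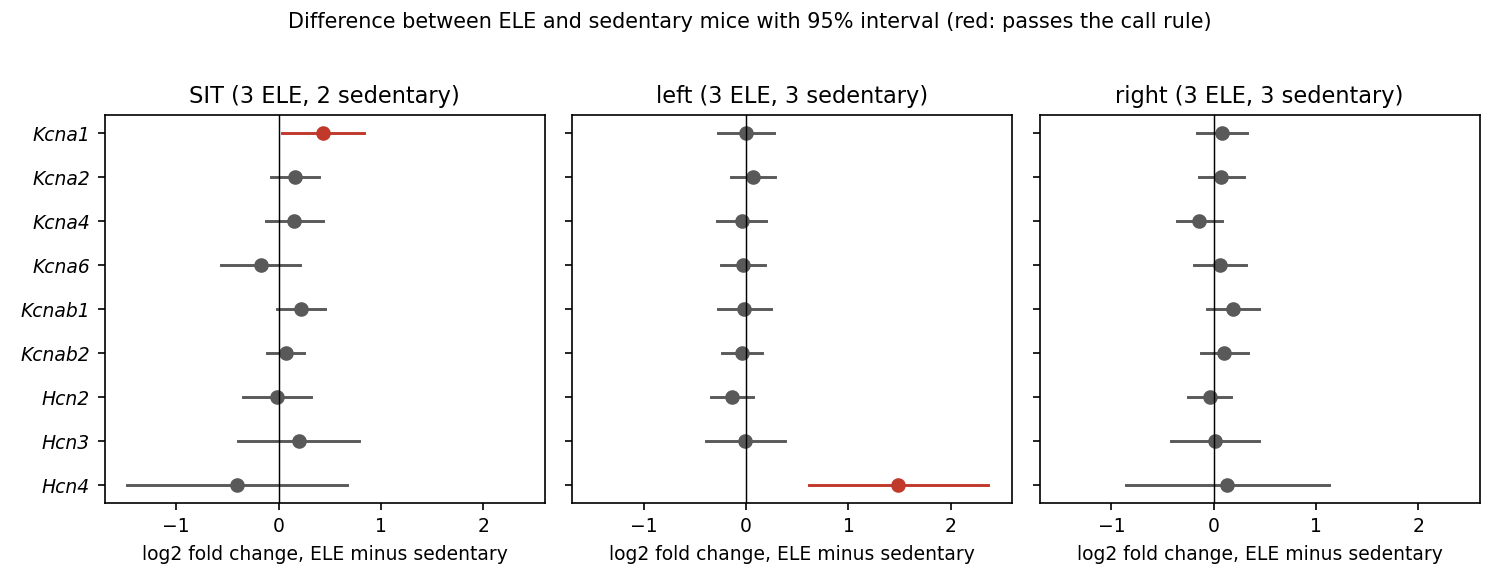
Log2 fold change of each gene, ELE minus sedentary, with its 95% interval from edgeR in SIT (3 and 2 libraries), left (3 and 3) and right (3 and 3). Kcna1 in SIT and Hcn4 in the left hippocampus, drawn in red, pass the call rule, and the intervals of the other genes include 0.

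Hcn4, the slowest-gating HCN subunit and the one known from cardiac pacemaker cells and thalamus, was the member with the largest difference. In the left hippocampus ELE mice TG7.3.2, TG9.1.4 and TG9.2.2 read 4.27, 5.16 and 2.68 CPM, and sedentary mice TG7.3.4, TG9.1.2 and TG9.2.4 read 1.11, 2.23 and 0.993 CPM. The means were 4.04 ± 1.26 and 1.44 ± 0.682 CPM (SD, n = 3 each), and every ELE value lay above every sedentary one. Of the 9 members 1 had such groups in the left hippocampus, against 10.7% of all genes. The log2 fold change was 1.49 (SE 0.38, 95% interval 0.61 to 2.36), with an edgeR p of 0.00423 before and 0.96 after Benjamini-Hochberg adjustment. The two-sided exact permutation test gave p = 0.1, the smallest that 3 against 3 allows. The call held without each library in turn, with log2 fold changes between 1.278 and 1.94, and with mouse-number prefixes as a blocking factor, at 1.53. The adjusted p ranged from 0.372 to 1 over these and the other settings tried.

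In the right hippocampus the Hcn4 groups overlapped, as did those of the other members, against 7.66% of all genes whose groups did not overlap. The ELE libraries read 2.82, 2.57 and 6.56 CPM and the sedentary ones 2.15, 6.09 and 2.68 CPM, so that each group had 2 low values and 1 high one. The log2 fold change was 0.13 (95% interval -0.86 to 1.13), and without the high ELE library, of mouse TG9.2.1, it was -0.43. The interaction of exercise and hemisphere was -1.35 (SE 0.66, 95% interval -2.77 to 0.06), so that a difference between the sides did not pass. Of the members 0 of 9 passed this test, against 2.6% of all genes. Before adjustment the Hcn4 interaction did pass with DESeq2 (-1.36), without the filter on low counts (-1.35) and when any of 5 of the 12 libraries was left out (-1.53 to -1.91). Without TG9.1.1 it was -0.77 and did not pass. The fit without the filter called 1116 genes, against 490 with it. The Benjamini-Hochberg adjusted p of the Hcn4 interaction was 0.9997 or higher in every setting, by edgeR or DESeq2. In SIT the ELE libraries read 1.63, 1.12 and 2.02 CPM and the sedentary ones 2.99 and 1.21 CPM, with a log2 fold change of -0.40 (-1.48 to 0.67). With mouse NT6.304, at 5.41 CPM, added to the ELE group the direction turned to 0.27, and with all 8 libraries it was -0.58 (-1.84 to 0.69).

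Some of the high Hcn4 values occurred in libraries with much Gfap mRNA. Gfap, the gene of an astrocyte filament protein, was picked from the 6 astrocyte markers after its values were seen. The paper adds that neural stem cells can also express it. The 4 libraries with the highest Gfap were those of TG9.1.1 (4102 CPM), TG9.1.4 (3952), TG9.2.1 (3359) and NT6.304 (3269), and they read 6.09, 5.16, 6.56 and 5.41 CPM for Hcn4. They came from right sedentary, left ELE, right ELE and SIT ELE mice. The other 16 libraries had 689 to 2474 CPM of Gfap, and among them NT7.2.3 (6.8 CPM), TG7.3.2 (4.27 CPM) and NT7.2.4 (4.12 CPM) were the highest in Hcn4. The part of astrocyte or neural stem cell RNA in the Hcn4 values was not tested. Pearson's r of log2(CPM + 0.5) between both genes was 0.400 over all 20 libraries, 0.6 over the 17 compared and 0.64 over the 12 separately isolated ones, which share their isolation. The 6 astrocyte markers summed to 2535, 5234 and 3362 CPM in the left ELE libraries and 2792, 3309 and 3478 CPM in the left sedentary ones, which overlapped, and none of the 6 passed. Without TG9.1.4 the left difference in Hcn4 was 1.285 and still passed. Of the 5 thalamus and habenula markers tested in the left hippocampus 0 passed, and their sums were 15.3 to 25.5 CPM in ELE and 14.9 to 24.1 CPM in sedentary mice.

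**Figure D4:**
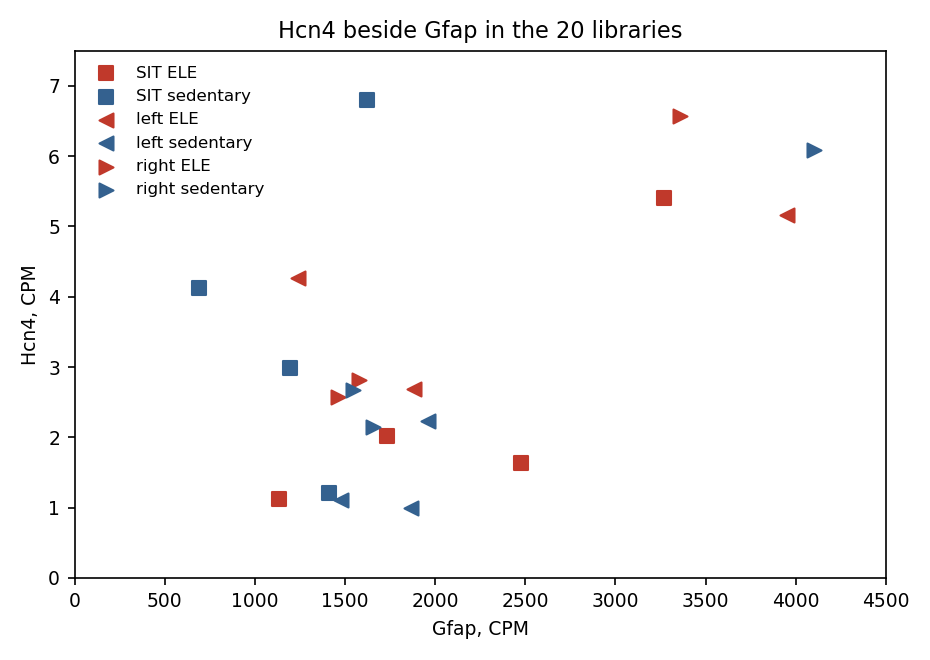
CPM of Hcn4 against CPM of Gfap in the 20 libraries, with squares for SIT and triangles pointing left and right for the hemispheres, red for ELE and blue for sedentary. The 4 libraries with the most Gfap all exceed 5 CPM of Hcn4, and the left ELE library of TG7.3.2 and both NT7.2 libraries are high in Hcn4 with less Gfap.

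Hcn2, with a higher level than Hcn3 or Hcn4, read 204, 199 and 285 CPM in the ELE SIT libraries and 237 and 226 CPM in the sedentary ones, with a log2 fold change of -0.02 (95% interval -0.35 to 0.32), and -0.056 (-0.35 to 0.23) with all 8. In the left hippocampus it read 285, 358 and 337 CPM in ELE and 351, 352 and 379 CPM in sedentary mice, with a log2 fold change of -0.14 (-0.35 to 0.06). In the right hippocampus the log2 fold change was -0.04 (-0.25 to 0.17). Hcn3 lay between 6.23 and 16.9 CPM in the 17 libraries, with log2 fold changes of 0.20 in SIT (-0.39 to 0.79), -0.01 in the left (-0.40 to 0.38) and 0.02 in the right hippocampus (-0.41 to 0.45). With all 8 SIT libraries Hcn3 turned to -0.41 (-1.22 to 0.40), where the NT7.2 mice read 21.9 and 15.02 CPM.

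The precision of these values can be read from the intervals. The 95% intervals of 5 of the 9 genes in SIT and of 8 in the left and 8 in the right hippocampus lay wholly within a log2 fold change of 0.5 in either direction. When exercise was tested over both hemispheres together with hemisphere as a covariate (6 ELE, 6 sedentary), the 8 genes other than Hcn4 had log2 fold changes of -0.09 to 0.08, with interval bounds between -0.27 and 0.28. Hcn4 passed at 0.80 (SE 0.37, 95% interval 0.00 to 1.59, Benjamini-Hochberg adjusted p = 0.911 in edgeR), as 1 of 9 members, where 1.97% of all genes passed, 0.771% as higher and 1.2% as lower. Its groups overlapped, as did those of all 9 members, against 0.284% of all genes without overlap. The call was lost without any one of the 6 left libraries and without TG9.2.1, TG7.3.3 or TG9.2.3 of the right ones (0.62 to 0.88). The two-sided exact permutation test gave p = 0.102, where the smallest possible p is 0.00216. Right and left hippocampi were compared over the same 12 libraries with exercise as a covariate. Of the members 0 of 9 passed, where 1.14% of all genes passed, 0.459% as higher and 0.678% as lower on the right, and all 9 overlapped, against 0.0875% of all genes without overlap. The log2 fold changes, right minus left, lay between -0.00 and 0.13 for all but Hcn4, which gave 0.64 (-0.16 to 1.43).

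The other genes of the same channels and their partners gave few calls. Among further Shaker subunits, Kcnab3 had log2 fold changes of 0.05 in SIT, 0.08 in the left and 0.16 in the right hippocampus, and Kcna3 of -0.33, -0.07 and -0.14, and neither passed. Kcna5 rose in the left hippocampus, by 0.94 (SE 0.34), from 1.06, 1.06 and 0.888 CPM in sedentary to 2.46, 2.06 and 1.23 CPM in ELE mice, and gave -0.03 in the right one. The call was lost without TG7.3.2 (0.70), TG7.3.4 (0.98), TG9.1.2 (0.98) or TG9.2.4 (0.86). Kcna7 and Kcna10 had at most 3 and 9 counts in a library and were not tested.

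Of 16 partners of these channels, among them the secreted protein Lgi1, the Lgi1 receptors Adam22 and Adam23, scaffold proteins of the Dlg family and the HCN trafficking subunit Pex5l, 1 fell in SIT and 0 passed in the left or right hippocampus. The one that fell was Kcne2, an accessory subunit that is also strongly expressed in choroid plexus, with 0.713, 1.27 and 1.81 CPM in ELE libraries and 4.27 and 2.90 CPM in sedentary ones. Its log2 fold change was -1.51 (SE 0.44), and the call was lost without NT6.305 (-1.20), within the mice numbered NT6 (-1.35) and with one fit over all groups (-1.51). In the same comparison 3 of the 6 choroid plexus markers fell, as given above, and their part in the Kcne2 value was not tested. Lgi1 had a log2 fold change of 0.25 (95% interval 0.05 to 0.45) in SIT, under the fold threshold. Dlg4, the most abundant partner, gave 0.08, 0.03 and 0.17 in SIT, left and right, Dlg2 0.03, 0.23 and 0.16, and Adam11 0.01, -0.08 and -0.00. The median log2 fold change of the partners was 0.04 in SIT, -0.00 in the left and 0.06 in the right hippocampus, beside 0.00 for all genes in each.

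Of 33 other voltage-gated potassium channel subunits 1 fell in SIT, 2 rose in the left and 0 passed in the right hippocampus. Dpp10, an auxiliary subunit of Kv4 channels, fell in SIT from 29.45 and 20.9 CPM in sedentary to 19.0, 8.06 and 14.0 CPM in ELE mice, with a log2 fold change of -0.88 (SE 0.30), a call that was lost without NT6.305 (-0.61), within the mice numbered NT6 (-0.74) and with one fit over all groups (-0.88). In the left hippocampus Kcnh5, an ether-à-go-go channel, rose by 1.10 (SE 0.29), from 1.58, 1.89 and 1.72 CPM in sedentary to 2.97, 2.91 and 5.22 CPM in ELE mice. Kcng1, a silent subunit that modifies Kv2 channels, passed at 0.52 (SE 0.22), with groups that overlapped. The Kcng1 call was lost without TG7.3.2 (0.50), TG9.1.4 (0.25), TG7.3.4 (0.56), TG9.1.2 (0.47) or TG9.2.4 (0.53), and with mouse-number prefixes as a block (0.46). Kcnh5 was also the one gene of this list to pass the interaction with hemisphere, at -1.003 (SE 0.36), and to pass over both hemispheres together, at 0.59 (SE 0.22). The former was lost without TG9.2.2 (-0.67) and the latter without TG7.3.4 (0.50). None of these calls held after Benjamini-Hochberg adjustment of edgeR's p-values over all genes. With low counts left in, that of Dpp10 in SIT did (log2 fold change -0.88, Benjamini-Hochberg adjusted p = 0.00132 in edgeR), and its adjusted p over the other alternatives was 0.324 or higher. Dpp6 and Kcnip2, auxiliary subunits of Kv4 channels with high mean levels, had log2 fold changes between -0.16 and 0.17 in these comparisons and did not pass. In the interaction of exercise with isolation Kcnq5 passed at 0.38 (SE 0.18), Kcnf1 at -0.50 (SE 0.23) and, of the partners, Dlg1 at -0.28 (SE 0.12). These calls were lost without any one of 11, 8 and 8 of the 17 libraries, and those of Kcnq5 (0.15) and Kcnf1 (-0.35) also over all 20.

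The members that passed after Benjamini-Hochberg adjustment did so between the isolations, and 0 did so between the exercise groups. At an adjusted p under 0.05 they were Hcn2, Kcna2, Kcna1, Hcn3 and Kcnab2, 5 of 9, where 4801 of the 18843 genes tested passed. The 5 SIT libraries compared were set against the 12 separately isolated ones with exercise as a covariate, after their values had been seen. By the study's rule 5 of the 9 members were lower in SIT and 0 higher, where 14.4% of all genes passed, 9.52% as lower and 4.89% as higher. Hcn2 read 199 to 285 CPM in SIT and 285 to 383 CPM in separate isolation, a log2 fold change of -0.57 (SE 0.07, Benjamini-Hochberg adjusted p = 1.202e-05 in edgeR). The highest SIT library, of TG7.4.2, lay just under the lowest separately isolated one. Kcna2 read 131 to 156 CPM against 168 to 216 CPM, a log2 fold change of -0.46 (SE 0.06, Benjamini-Hochberg adjusted p = 1.282e-05 in edgeR), and its groups did not overlap either. These 2 of 9 members were the ones without overlap, against 7.39% of all genes.

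Kcna1 was lower by a log2 fold change of -0.63 (SE 0.10, Benjamini-Hochberg adjusted p = 0.000137 in edgeR), with 38.8 to 74.9 CPM against 68.5 to 95.1 CPM. Hcn3 was lower by -0.64 (SE 0.14, Benjamini-Hochberg adjusted p = 0.00153 in edgeR), and Hcn4 by -0.83 (SE 0.38) with an adjusted p of 0.115. Kcnab2 differed by -0.22 (SE 0.06, Benjamini-Hochberg adjusted p = 0.00599 in edgeR), under the fold threshold. The other 3, Kcna4, Kcna6 and Kcnab1, had log2 fold changes between -0.04 and 0.15. The same test called 10 of the 33 other voltage-gated potassium channel subunits lower, with log2 fold changes of -0.40 (Kcnd3) to -0.73 (Kcnh4), and 1 higher (Kcnip4, 0.68). Among them were Kcnh2, Kcnh3, Kcnh5, Kcns2 and Kcnma1, and of the 16 partners Lgi2 was lower, at -0.49. With all 20 libraries Hcn2 (-0.60, Benjamini-Hochberg adjusted p = 1.446e-06 in edgeR) and Kcna1 (-0.57, adjusted p = 0.000347) still passed. Kcna2 was then at -0.27 (Benjamini-Hochberg adjusted p = 0.0872 in edgeR), Hcn3 at -0.18 (adjusted p = 0.556) and Hcn4 at -0.01. Of the other genes named here, Kcnd3 (-0.13), Kcnma1 (-0.20) and Lgi2 (-0.061) no longer passed and Kcnh2 turned to 0.014. Without NT6.303 or NT6.306 the Kcnh4 call was lost (-0.61 and -0.50), as were that of Kcnh2 without TG7.4.1 (-0.38) and that of Kcnd3 without any one of 4 libraries (-0.35 to -0.39). The Hcn4 call was also lost without any one of 7 of the 17 libraries, with log2 fold changes of -0.62 to -0.84. The SIT mice compared had other mouse-number prefixes (NT6 and TG7.4) than the separately isolated ones (TG7.3, TG9.1 and TG9.2). They also had both hippocampi pooled, so that isolation, hemispheres and mice cannot be told apart. Of the 8 inhibitory neuron markers 5 were higher in SIT and of the 6 astrocyte markers 4 were lower, and their part in the member values was not tested.

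Likeness of pattern was described by Pearson's r of log2(CPM + 0.5) over the 20 libraries, among the 14224 genes that averaged 1 CPM or more. Libraries of the same isolation and both NT7.2 libraries share much of what these correlations measure. The genes most like Kcna1 were Dgki (r = 0.945), Gm7328 (0.936) and Usp33 (0.933), and those most like Kcna2 were Usf3 (0.954), Marf1 (0.932) and Scn2a (0.931), the gene of an axonal sodium channel. Hcn2 was most like Grin2c (0.964), Sidt2 (0.964) and Tril (0.963), and Kcnab2 most like Camk2a (0.924), Dscaml1 (0.908) and Pou6f1 (0.894). For Hcn4 the genes were Asic1 (0.873), Rgs10 (0.862) and Sdk1 (0.86), for Hcn3 Slc23a2 (0.892), Wnk2 (0.871) and Jag2 (0.862), and for Kcnab1 Dgkh (0.868), Arhgap20 (0.867) and Cttnbp2 (0.862). Kcna4 was most like Tlnrd1 (0.885), Fam19a5 (0.881) and Ppp1ca (0.864), which fell to 0.554, 0.657 and 0.465 over the 17 libraries compared. Kcna6 was most like Gjb2 (0.934), Lgmn (0.928) and Rps2 (0.915), with 0.842, 0.798 and 0.709 over the 17. Over the 12 separately isolated libraries alone, Kcnab2 with Pou6f1 (0.949) and Camk2a (0.929) and Hcn4 with Rgs10 (0.867) were among the values that stayed high, while Usp33 with Kcna1 fell to 0.506. Between members the highest r over these 12 libraries were 0.699 for Kcna1 with Hcn2 and 0.658 for Kcna1 with Kcnab2.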

How the data were processed

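TRAP-seq counts of 20 libraries, each from 1 mouse, were analysed. The authors aligned the reads with STAR 2.7.3a to GRCm38, removed duplicates with Picard 1.87, counted fragments on exons by strand (GenomicAlignments), and deposited raw counts, as whole numbers for each gene. Removing duplicates lowers the counts of abundant genes most. Columns were tied to groups by mouse number. A second table, of wild-type hippocampus, has 24 columns that were not used. Of 55335 identifiers 55154 matched GENCODE without their version.

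Depth was 45895097 to 65767802 counts. Libraries of 1 group differed by more than counting error (chi-square per gene 20.2 to 463 over 24 pairs). CPM of single genes were scaled with TMM over the 20 libraries, and CPM per kb used the exonic length. Sums of marker genes used CPM from the total counts, without TMM. Groups were compared with edgeR 4.0.16 (R 4.3.3): TMM, filterByExpr, glmQLFit and glmQLFTest, with the groups compared only. The standard error was the absolute log2 fold change over the square root of F. Calls followed the study's rule of p under 0.05 before adjustment together with a log2 fold change beyond 0.39 in either direction; interactions were called on p alone. Adjusted p-values are Benjamini-Hochberg over all genes tested. Single genes were tested by two-sided exact permutation on log2(CPM + 0.5) with scipy 1.17.1. p-values measure the spread between these mice, some of which may have shared a cage. The steps were tested on simulated counts.

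The members, the gene lists and the marker lists were chosen with earlier results of these data known. Named are the members, genes of the channel and partner lists that passed in a comparison, up to 4 others per channel or partner list with the highest mean CPM, and 3 genes most like each member. Some genes that this rule names, and 1 filter sequence, are not reported here. Gfap and the partners named by role were chosen after their values were seen. The comparisons over both hemispheres, of right with left and of SIT with separate isolation, and the interaction of exercise with isolation, were also added after the values were seen. The marker lists gave 0 called genes in the SIT, left and right comparisons for excitatory (Nrgn passed the interaction with hemisphere), oligodendrocyte and astrocyte markers, and 1 or more in at least 1 of these for inhibitory (Pvalb, Erbb4, Slc32a1), microglia (Cx3cr1), endothelial (Slco1c1, Cldn5), choroid plexus (Folr1, Clic6, Kl, Ttr), dentate (Prox1, Dsp) and CA3 and CA2 markers (Bok, Amigo2), and none for CA1, thalamus and habenula markers. Alternatives were DESeq2 1.42.0, median-of-ratios size factors, no filter on low counts, one fit over all groups, other sets of libraries, a block by mouse number, and leaving out each library.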

Additional observations from a re-analysis of the deposited data

Results flagged for a closer look

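Values for the SIT libraries outside the comparison lay above the highest of the 8 sedentary libraries compared in 7 cases. Mouse NT7.2.3 read 220 CPM of Kcna2 and mouse NT7.2.4 read 241 CPM, against at most 214 CPM. The same mice read 59.4 and 53.6 CPM of Kcna6, against at most 38.7 CPM. Mouse NT7.2.4 read 165 CPM of Kcnab1, against at most 153 CPM, and mouse NT7.2.3 read 21.9 CPM of Hcn3 and 6.8 CPM of Hcn4, against at most 16.9 and 6.09 CPM. All of these came from the libraries with 8.64% and 9.64% mitochondrial counts, and the part of that difference was not tested.

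Among the 4 ELE SIT libraries, that of mouse TG7.4.2 stood apart in Hcn2 with 285 CPM, where its gap to the next library was 0.871 of the range. Chance sets off this rule in about 5% of groups of this size.

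The change of Kcna1 with exercise differed between SIT and separate isolation by 0.397 on the log2 scale, with a Benjamini-Hochberg adjusted p of 0.89 in edgeR.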

How the results depend on the processing

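Hcn4 in the left hippocampus passed under every alternative run other than calling on adjusted p. RLE size factors and unscaled totals moved no member's mean CPM in separate isolation by more than 1 SD. At an adjusted p under 0.05 the members called were 0 in SIT, 0 in the left hippocampus, 0 over both hemispheres and 0 for the interaction of exercise with isolation, and the genes called over the whole table were 0 in SIT, left, right, both interactions and right against left, 1 over both hemispheres and 4801 in SIT against separate isolation. DESeq2 called 552 genes in the left hippocampus, 615 over both hemispheres and 426 in right against left, and 1 member, Hcn4, in the interaction with hemisphere. With low counts left in, 691 genes were called in the left and 715 in the right hippocampus, 1116 (1 member) in the interaction with hemisphere, 961 over both hemispheres, 663 (1 member) in right against left and 4215 in SIT against separate isolation. In SIT 1111 genes were called with one fit over all groups, 1350 with all 8 libraries and 1179 within the NT6 mice. Over all 20 libraries the interaction of exercise with isolation called 1875 genes and 3 members, Kcna2, Kcna4 and Kcna6 in place of Kcna1. SIT against separate isolation called 2 members there. The share of all genes called in these fits is not given here, so their member counts are not set against a background. Over the 17 libraries compared, the interaction called 5.59% of 20345 genes and SIT against separate isolation 14.4% of 18843. Directions of log2 fold changes turned with all 8 SIT libraries for Hcn3 (-0.409) and Kcna2 (-0.358), within the NT6 mice for Kcnab1 (-0.045), Kcnab2 (-0.0192) and Hcn4 (0.727), and with NT6.304 added for Hcn4 (0.268), and over all 20 libraries for Kcnh2 in SIT against separate isolation (0.01391). Kcna1 in the left hippocampus, near 0, turned to -0.000185 without the filter, -0.00365 with one fit and -0.00932 with mouse-number prefixes as a block. The cause of these changes was not tested.

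Leaving out 1 library at a time gave 355 (without NT6.305) to 1086 (without TG7.4.2) genes and 0 to 1 members in SIT, 220 (without TG7.3.4) to 945 (without TG7.3.2) genes in the left hippocampus, with 810 without TG9.2.2, and 308 to 643 (without TG9.1.1) in the right. It gave 384 to 812 (without TG9.2.2) genes and 0 to 2 members in the interaction with hemisphere, 294 to 589 (without TG7.3.2) genes and 0 to 1 members over both hemispheres, with 581 without TG9.1.1, 194 to 437 (without TG9.1.4) genes and 0 to 1 members in right against left, with 325 without TG9.2.3, and 0 to 2 members in the interaction with isolation. Members whose log2 fold change crossed 0, none of them called, were in SIT Hcn2 (-0.208 to 0.0803), Hcn3 (-0.0549 to 0.39) and Hcn4 (-0.909 to 0.39), in the left hippocampus Kcnab1 (-0.157 to 0.0724), Hcn3 (-0.1995 to 0.117), Kcnab2 (-0.0825 to 0.0263), Kcna6 (-0.0969 to 0.0165), Kcna2 (-0.0116 to 0.113), Kcna4 (-0.134 to 0.0458) and Kcna1 (-0.0771 to 0.124), in the right hippocampus Hcn2 (-0.107 to 0.0181), Hcn3 (-0.103 to 0.223), Hcn4 (-0.432 to 0.711), Kcna6 (-0.0152 to 0.138) and Kcna2 (-0.0168 to 0.158), and in the interaction with hemisphere Hcn3 (-0.105 to 0.237), Kcna2 (-0.076 to 0.0944), Kcna4 (-0.184 to 4.192e-05) and Kcna1 (-0.0466 to 0.187). With 2 or 3 libraries a group, the 95% intervals of Hcn3 and Hcn4, the members with the fewest counts, were the widest. By the replicate numbers of the labels, no paired analysis was possible because the count columns carry mouse numbers instead. Libraries could be matched by mouse-number prefix, since each left and right group held 1 mouse of each of 3 prefixes, and fits with the prefix as a block called 340 genes in the left hippocampus, 326 in the right and 446 over both.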
